A study of Homo sapiens with 4 samples.

Results

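Desmosomes are the button-like junctions that tie the keratin filaments of neighbouring epithelial cells together, and their genes were examined in SCC-15 cells with and without REEP6 overexpression. The 10 genes were taken by gene name from the deposited tables. They were the plakin DSP, the armadillo proteins JUP, PKP2, PKP3 and PKP4, the cadherins DSC2, DSC3, DSG2 and DSG3, and the tetraspan protein PERP, out of 51103 genes listed. Polyadenylated RNA was sequenced from 4 libraries of SCC-15, an established human line labelled as oral squamous cell carcinoma. Its genotype was given as negative control in 2 libraries and as REEP6 overexpression, established with lentivirus, in the other 2. The labels name no promoter or clone for the construct and do not describe the control vector. RNA was collected in Trizol after 48 hours. REEP6 encodes a membrane protein of the endoplasmic reticulum, and the stated purpose of the series was to screen for genes that respond to its overexpression. Whether replicates came from separate cultures is not stated, so every p-value here measures the spread between these libraries, which may be technical. The fits pool that spread over genes, in part or wholly.

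In a desmosome, desmogleins and desmocollins cross the membrane and bind their partners on the next cell. Their tails bind plakoglobin (JUP) and the plakophilins in a plaque under the membrane. Desmoplakin (DSP) joins that plaque to keratin filaments, so that tissues under strain, such as skin, oral mucosa and heart muscle, hold together. Stratified squamous epithelia use DSG1, DSG3, DSC1, DSC3 and PKP1 in addition to the more widely expressed DSG2, DSC2, PKP2 and PKP3.

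The libraries held between 12856256 and 15208629 counts assigned to genes. REEP6 itself was listed with 348 and 468 counts in the controls and with 649 and 680 counts in the overexpression libraries, and rose 1.76-fold (edgeR adjusted p = 0.00119). The labelled squamous cell type was checked against 17 marker genes. Of these, 10 had at most 3 counts in every library, and 7 of the 10 had none. The basal keratins KRT5 (0, 0, 2 and 2 counts) and KRT14 (0, 6, 0 and 0 counts) were near 0, and KRT6A, KRT13 and IVL had no counts (libraries always in the order control 1, control 2, REEP6 1, REEP6 2). The squamous regulator TP63 had 3, 14, 3 and 4 counts. The simple epithelial keratins KRT8 and KRT18 and the mesenchymal filament gene VIM were abundant, with lowest values of 164, 178 and 204 FPKM. The expression profile therefore lacked most of the markers that define squamous epithelium, and the values below describe these libraries as labelled.

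With REEP6 overexpression, RNA of several desmosome genes was higher, while PKP4, the most abundant desmosomal cadherin (DSG2) and PERP showed no change that passed the test. JUP rose 2.22-fold and PKP3 rose 1.49-fold. DSP, which lay below the level at which genes were tested, was 3.82-fold higher in a fit without that filter. PKP2 (1.75-fold) and the cadherin DSC2 (1.57-fold) were also higher in that fit, but neither passed with DESeq2. Of the 10 genes, 5 reached 1 FPKM (fragments per kilobase of exon, scaled to the library's total count) in 2 or more libraries and entered edgeR's quasi-likelihood test with 13077 genes in all. Of those 5, 2 passed a Benjamini-Hochberg adjusted p of 0.05, both higher, and 0 passed as lower. Across all genes tested, 25.1% passed, 10.9% as higher and 14.2% as lower. With FPKM scaled to equal sums the split was 661 higher and 2824 lower genes, against 1422 and 1854. The median log2 fold change was 0.16 over the 5 genes and -0.01 over all genes tested. At an unadjusted p under 0.05, edgeR, DESeq2 and limma each also gave 0 lower genes among the 5, and edgeR with FPKM scaled to equal sums gave 1 (DSG2).

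The levels of the 10 genes differed widely on the FPKM scale, which allows for gene length. PERP, a small membrane protein first known as a p53 target and needed for desmosome assembly, was the most abundant. DSG2, PKP4, PKP3 and JUP followed in the control. DSC2 and PKP2 came next, and their values overlapped there. DSP, DSC3 and DSG3 were lowest, and the last pair also overlapped. The libraries of all other neighbours in the control order did not overlap. With REEP6, PKP4 stood above DSG2 and DSC2 no longer overlapped PKP2, and the rest of the order was as in the control.

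**Figure D1:**
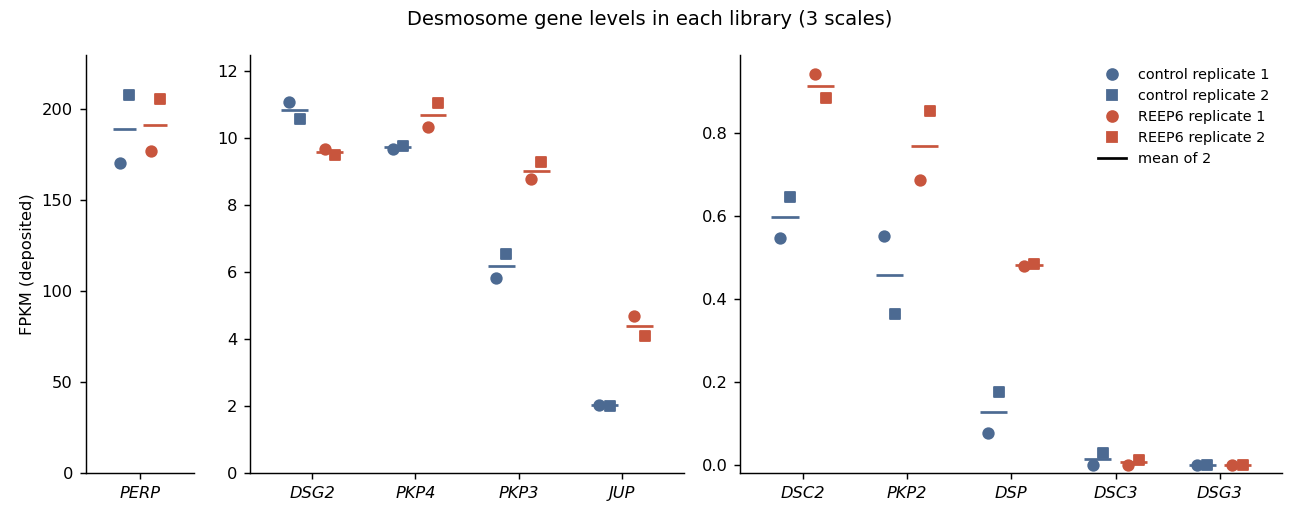
Deposited FPKM of the 10 desmosome genes in each library, in 3 panels with separate linear axes that start at or just below 0. Points are libraries and bars are the means of the 2 libraries of a group. JUP, PKP3, PKP4, DSC2, PKP2 and DSP lie higher in both REEP6 libraries than in both controls, and DSG2 lies lower.

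Because several of these genes were higher together, the bases upstream of their start sites were read for the E-box CACCTG. This is the core sequence bound by zinc-finger repressors of epithelial genes such as the SNAI and ZEB proteins. The search took both strands of the 250 bases before each RefSeq start site (GRCh38.p14), where CAGGTG is the same motif on the other strand. Of the 10 genes, 8 had a window, and PKP2 and PKP3 had none in the table used. A match was found in 4 of 11 windows (36.4%), at DSP, JUP, DSC2 and DSG2, against 17.5% of all 35116 windows of that length. JUP and DSC2 each also had a window without a match. The 2 shares were not matched for GC content, and an excess was not tested. The motif stood both at genes that were higher with REEP6 and at DSG2, which was not. A match describes letters and is neither a binding site nor a cause. Sequences are shown 5′ to 3′ on the gene's strand, with E-box matches in capitals. The DSG3 stretch is the whole window and ends at the base before the RefSeq start site. Those of the other genes, except for JUP, stop where the first annotated exon begins. A further match at DSP and at DSG2 lies beyond that point and is not shown. In PERP the capitals mark the AP-1 motif TGANTCA, which 6.57% of all windows held. DSG3 is shown as the gene with no count, and it holds neither motif. The JUP stretch lies beyond the point where an annotated exon begins, and its 2 matches are 5 bases apart.
DSP, chr6:7541421-7541574, plus strand: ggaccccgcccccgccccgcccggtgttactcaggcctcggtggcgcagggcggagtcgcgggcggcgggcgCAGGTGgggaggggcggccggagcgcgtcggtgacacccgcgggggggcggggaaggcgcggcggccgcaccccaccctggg
JUP, chr17:41786007-41786036, minus strand: tggcccCACCTGccgagCAGGTGagcgcac
DSC2, chr18:31102523-31102671, minus strand: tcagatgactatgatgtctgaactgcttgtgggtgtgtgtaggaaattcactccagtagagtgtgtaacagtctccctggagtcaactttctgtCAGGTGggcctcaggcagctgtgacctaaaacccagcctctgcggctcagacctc
DSG2, chr18:31497927-31498042, plus strand: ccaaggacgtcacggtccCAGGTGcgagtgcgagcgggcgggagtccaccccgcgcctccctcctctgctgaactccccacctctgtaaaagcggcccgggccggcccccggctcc
DSG3, chr18:31447491-31447740, plus strand: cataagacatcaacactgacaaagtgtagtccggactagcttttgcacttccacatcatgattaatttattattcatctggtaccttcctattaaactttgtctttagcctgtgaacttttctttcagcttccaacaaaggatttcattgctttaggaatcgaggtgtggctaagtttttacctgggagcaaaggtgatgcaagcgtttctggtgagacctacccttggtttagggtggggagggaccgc
PERP, chr6:138107512-138107669, minus strand: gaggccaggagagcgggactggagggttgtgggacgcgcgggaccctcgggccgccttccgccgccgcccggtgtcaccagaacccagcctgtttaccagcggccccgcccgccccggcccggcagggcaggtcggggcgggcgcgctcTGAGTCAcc

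The windows also differed in composition. GC content was 78.0% at DSP, 77.2% at PERP and 75.2% at DSG2, and 42.8% at DSG3, where the median of all windows was 58.0%. GC-rich windows thus stood at genes with high RNA (PERP, DSG2) and at a gene with little (DSP). The GC box GGGCGG was present 7 times at DSP and 5 times at PERP on either strand, and 42.6% of all windows held it. The core motif AACCGGTT of the grainyhead-like factors, which drive epithelial junction genes, was found at no desmosome gene and in 0.117% of all windows. That says only that these letters are not in these windows.

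Desmoplakin, the plakin that links the plaque to keratin, showed the largest difference of the 8 genes with more than 4 counts, at a low level. DSP (ENSG00000096696, chromosome 6, 7541575 to 7586717, plus strand, GRCh38) had 10 and 27 counts in the controls and 64 and 65 with REEP6. These are 0.0771, 0.176, 0.479 and 0.484 FPKM, so both REEP6 libraries lay above both controls. The controls differed from each other by more than the REEP6 libraries did. DSP did not reach 1 FPKM in any library and was therefore outside that test. In an edgeR fit of all 29161 genes with a count, where 6.8% were called higher, its log2 fold change was 1.93 ± 0.335 (SE), with a 95% interval of 1.28 to 2.59 and an adjusted p of 4.59e-07. The interval has the width of a normal distribution, so its error came from spread pooled over all genes. The difference between the DSP controls had no weight of its own in it. With edgeR's own filter on low counts, where 10.2% of 15704 genes were called higher, the log2 fold change was also 1.93, with an adjusted p of 0.00572. The size depended on the controls. Under edgeR's own filter it was 2.78-fold without control replicate 1 and 6.43-fold without control replicate 2, and both passed. In the fit without a filter the adjusted p became 0.258 and 0.265 without those libraries, where no gene in the whole table passed. In bulk RNA, more cells with DSP and more DSP RNA per cell cannot be told apart.

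Next to other plakins, DSP remained scarce. PLEC, the plectin gene that anchors keratin at hemidesmosomes, was 1081, 369, 175 and 155 times as abundant as DSP in FPKM. The plakin genes PPL (138, 42.4, 24.6 and 21.3 times) and EVPL (108, 44.2, 23.4 and 21.5 times) stood closer to it. The control ratios rest on only 10 and 27 DSP counts. KRT8, which encodes a filament protein that DSP binds, was 2127, 1009, 382 and 368 times as abundant. All these ratios were lower in the REEP6 libraries. PLEC (adjusted p = 0.475) and KRT8 (adjusted p = 0.392) did not pass edgeR's test themselves. The ratios thus mostly restate the DSP values and add no separate evidence.

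Plakoglobin, the armadillo protein that binds cadherin tails in desmosomes and adherens junctions alike, had the larger of the 2 rises called at 1 FPKM. JUP (ENSG00000173801, chromosome 17, 41754604 to 41786931, minus strand) had 129 and 151 counts in the controls and 307 and 269 with REEP6. Its level was 2.03, 2.01, 4.69 and 4.09 FPKM, or 2.02 ± 0.0151 in the control and 4.39 ± 0.425 with REEP6 (SD, n = 2). The controls nearly coincided, and the REEP6 libraries lay above them by several times their own spread. The log2 fold change was 1.15 ± 0.158 (SE), with a 95% interval of 0.79 to 1.50 and an edgeR adjusted p of 0.00139. It passed without each library in turn, at log2 fold changes of 1.04 to 1.25.

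Plakophilins cluster desmosomal proteins in the plaque, and of those tested PKP3 rose and PKP4 did not pass. PKP3 (ENSG00000184363, chromosome 11, 392614 to 404908, plus strand), the form found through most epithelial layers, had 284, 376, 440 and 468 counts, or 5.83, 6.53, 8.78 and 9.29 FPKM. Both REEP6 libraries were above both controls. Its log2 fold change was 0.57 ± 0.122 (SE), with a 95% interval of 0.30 to 0.84 and an edgeR adjusted p of 0.00918. It passed without each library in turn in this test.

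PKP2 (ENSG00000057294, chromosome 12, 32790745 to 32896840, minus strand), the plakophilin of heart muscle and simple epithelia, was below 1 FPKM. It had 50, 39, 64 and 80 counts, or 0.552, 0.364, 0.687 and 0.854 FPKM. Both REEP6 values were above both controls and the libraries of each group stood well apart. The fit without a filter gave a log2 fold change of 0.81 ± 0.274 (SE) with an adjusted p of 0.0284. That call was lost with edgeR's own filter (adjusted p = 0.0656) and with DESeq2 without a filter (adjusted p = 0.216). With equal FPKM sums PKP2 did not pass either, without a filter (edgeR adjusted p = 0.193) or with edgeR's own (0.131).

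PKP4 (ENSG00000144283, chromosome 2, 158456964 to 158682879, plus strand), a relative of p120 catenin found at several kinds of junction, had 1187, 1414, 1304 and 1401 counts. Its level was 9.69, 9.76, 10.3 and 11.1 FPKM. The groups did not overlap, but the difference was small, with a log2 fold change of 0.16 ± 0.0866 (SE), a 95% interval of -0.03 to 0.36 and an edgeR adjusted p of 0.191. PKP4-AS1, on the other strand, shares 418 exonic bases with PKP4 and had 30, 35, 13 and 18 counts. The kit named in the labels does not mark strand, so reads of the shared bases cannot be assigned to one of the genes. PKP4 made up 60.1%, 58.5%, 52.2% and 52.0% of the summed plakophilin FPKM. The share of PKP3 was 36.2%, 39.2%, 44.3% and 43.7%. The squamous plakophilin PKP1 had 4, 2, 0 and 4 counts.

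**Figure D2:**
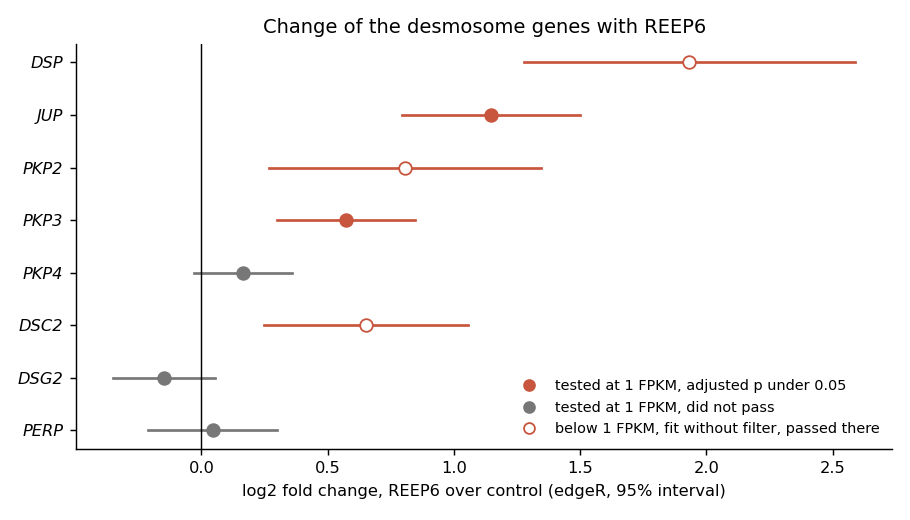
Log2 fold change of REEP6 over control (x axis) with 95% intervals from edgeR for the 8 desmosome genes with more than 4 counts in all. Filled points are genes tested at 1 FPKM and open points are genes below it, taken from the fit without a filter. The intervals of DSP, JUP, PKP2, PKP3 and DSC2 lie above 0, and those of PKP4, DSG2 and PERP include 0. Intervals of open points rest on an error pooled over genes and are not on a par with the others. PKP2 passed in 5 of 18 settings and DSC2 in 7 of 18.

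Among the cadherins, DSG2 carried nearly all desmoglein RNA and DSC2 nearly all desmocollin RNA, and the former was the more abundant in every library. DSG2 (ENSG00000046604, chromosome 18, 31498043 to 31549008, plus strand), the desmoglein of simple epithelia and heart, had 881, 997, 793 and 783 counts. Its level was 11.1, 10.6, 9.68 and 9.51 FPKM, and both REEP6 libraries lay just below both controls. The difference did not pass the test, with a log2 fold change of -0.15 ± 0.0904 (SE), a 95% interval of -0.35 to 0.06 and an edgeR adjusted p of 0.261. After a correction for GC content its sign changed (0.01). DSG2-AS1, which shares 171 exonic bases on the other strand, had 1, 0, 7 and 3 counts.

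DSC2 (ENSG00000134755, chromosome 18, 31058840 to 31102522, minus strand), the most widely expressed desmocollin, was below 1 FPKM in all libraries. It had 88, 123, 156 and 147 counts, or 0.548, 0.647, 0.943 and 0.884 FPKM, with both REEP6 libraries above both controls. The fit without a filter gave a log2 fold change of 0.65 ± 0.206 (SE), a 95% interval of 0.25 to 1.06 and an adjusted p of 0.0154. It also passed with edgeR's own filter (adjusted p = 0.0319), but not with DESeq2 under either filter (adjusted p = 0.118 and 0.0744). Nor did it pass with equal FPKM sums, without a filter (edgeR adjusted p = 0.116) or with edgeR's own (0.0696). Under edgeR's own filter the call was lost without control replicate 1 (adjusted p = 0.0953), REEP6 replicate 1 (adjusted p = 0.121) or REEP6 replicate 2 (adjusted p = 0.0592). DSG2 was 20.2, 16.4, 10.3 and 10.8 times as abundant as DSC2 in FPKM. The ratio of these binding partners was lower in both REEP6 libraries, which mostly restates the DSC2 values.

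The cadherins of stratified epithelium were at or near 0. DSG3 (ENSG00000134757, chromosome 18, 31447795 to 31478702, plus strand), the autoantigen of pemphigus vulgaris, had no count in any library, which allows a level of up to 0.0422 FPKM in the least deep one. DSC3 (ENSG00000134762, chromosome 18, 30990008 to 31042815, minus strand), its basal-layer partner, had 0, 3, 0 and 1 counts. At this depth no difference was detectable for either. DSG1 had 0, 0, 2 and 0 counts, DSG4 had 3, 5, 0 and 1, and DSC1 had none. These limits cover counting error only.

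The cadherin genes lie side by side on chromosome 18 in a cluster of 559.0 kb, desmocollins at one end on the minus strand and desmogleins at the other on the plus strand. DSG2 and DSG3 are 19.3 kb apart, and DSC2 and DSC3 are 16.0 kb apart. The level thus differed sharply between neighbours in the cluster, and the expressed pair stood 395.5 kb from each other.

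**Figure D3:**
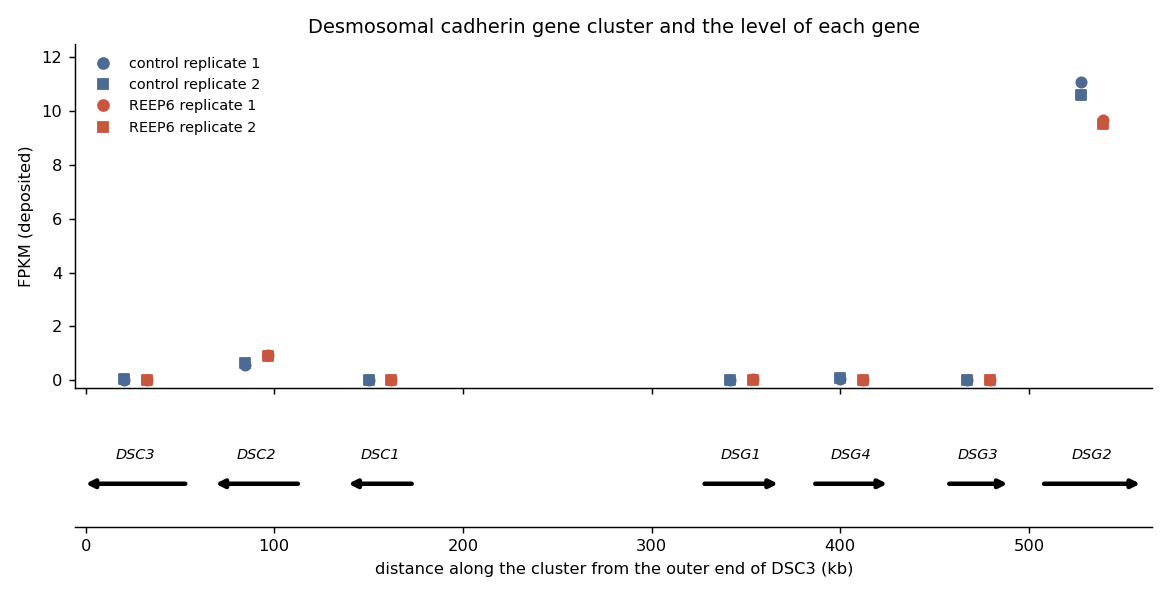
Deposited FPKM (y axis) of the 7 desmosomal cadherin genes in each library, placed by distance along their cluster in kb from the outer end of DSC3, with arrows for gene extent and strand. DSG2, at one end, lies between 9.51 and 11.1 FPKM, DSC2 below 1 FPKM, and the others near 0.

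PERP (ENSG00000112378, chromosome 6, 138088505 to 138107511, minus strand) had 9389, 13554, 10065 and 11736 counts, or 170, 208, 177 and 206 FPKM. The groups overlapped, and the 2 libraries of each group differed more than the groups did. Its log2 fold change was 0.04 ± 0.114 (SE), with a 95% interval of -0.21 to 0.30 and an edgeR adjusted p of 0.812. Its sign changed with FPKM scaled to equal sums (-0.08).

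Counted over the 10 genes, both REEP6 libraries were above both controls for 6, below them for 1 (DSG2), and overlapped for 3. Among all genes with a count, 20.5% lay above and 24.6% below in that way. Among the 5 tested genes, 3 lay above, 1 below and 1 overlapped, against 28.2% and 35.3% of all genes tested. When the libraries were scaled to equal FPKM sums, the median over all genes tested moved to -0.139 on the log2 scale, and JUP (1.02, adjusted p = 0.00162) and PKP3 (0.44, adjusted p = 0.0236) still passed. Ratios to JUP moved with JUP itself. DSG2 was 5.45, 5.27, 2.06 and 2.32 times as abundant as JUP. CTNNB1, which encodes beta-catenin, the close relative of plakoglobin at adherens junctions, was 26.7, 25.9, 10.5 and 12.2 times as abundant as JUP. Both ratios were lower in the REEP6 libraries. CTNNB1 (adjusted p = 0.539) and DSG2 did not pass edgeR's test themselves. The 2 ratios thus mostly restate the JUP values and add no separate evidence.

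Genes of structures that work with the desmosome were taken from 5 lists, of which 41 genes were tested, and 8 passed as higher and 8 as lower, beside the 10.9% and 14.2% of all genes. With equal FPKM sums the split was 3 higher and 10 lower, with limma on log2(FPKM + 1) 3 and 7, and with a correction for the GC content of genes 4 and 7. Of all 13077 genes tested, those fits called 661 higher and 2824 lower, 634 and 1272, and 1010 and 1363. Without SRC and ZEB2, which reached 1 FPKM in only 1 group, 7 of 39 passed as higher and 7 as lower. Among other desmosomal and cornified envelope genes, 1 of 2 tested was called. EVPL, the envelope plakin envoplakin, had 8.34, 7.77, 11.2 and 10.4 FPKM and rose by a log2 fold change of 0.45 ± 0.0948 (adjusted p = 0.00877), but not without REEP6 replicate 1 (adjusted p = 0.0522). Its partner PPL, with 10.6, 7.45, 11.8 and 10.3 FPKM, overlapped between groups.

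Of 19 keratins, 6 were tested, 2 passed as higher and none as lower, with a median log2 fold change of 0.30. KRT18, the simple epithelial partner of KRT8, had 178, 182, 221 and 231 FPKM (log2 fold change 0.36, adjusted p = 0.0123), and passed in 20 of 32 settings. Its call was lost without REEP6 replicate 2 (adjusted p = 0.0775), with equal FPKM sums (0.0961), with limma (0.0524) and with the GC correction (0.11). KRT80, a keratin associated with desmosomes, had 5.42, 5.41, 8.20 and 10.0 FPKM (log2 fold change 0.78, adjusted p = 0.00291).

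The adherens junction list, the neighbouring actin-linked junction, had 10 tested genes, of which 1 passed as higher and 3 as lower, with a median log2 fold change of -0.07. LIMA1, an actin-binding protein at those junctions, fell from 16.9 and 18.5 to 7.51 and 6.95 FPKM (log2 fold change -1.27, adjusted p = 0.000126). CTNNA1, the alpha-catenin gene, fell from 6.52 and 6.01 to 3.89 and 4.02 FPKM (log2 fold change -0.64, adjusted p = 0.00232). NECTIN3 also fell (-0.49, adjusted p = 0.00485), whereas NECTIN1 rose (0.44, adjusted p = 0.0270), a call lost without control replicate 1 (adjusted p = 0.0727) or REEP6 replicate 2 (adjusted p = 0.160), and also with equal FPKM sums (0.0948), limma (0.0869) and the GC correction (0.136). The classical cadherin CDH1, the defining cadherin of epithelial adherens junctions, had 0, 0, 1 and 0 counts and CDH2 had none, so neither could be compared with the desmosomal cadherins.

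Of the hemidesmosome genes, which tie keratin to the basement membrane, 7 were tested, with 2 higher and 1 lower. The integrin ITGB4 rose (14.5, 13.1, 18.9 and 17.6 FPKM, adjusted p = 0.00944), but not with equal FPKM sums (adjusted p = 0.0537). The plakin DST fell (21.9, 17.1, 12.9 and 11.3 FPKM, adjusted p = 0.00534). The call of LAMB3 (adjusted p = 0.0432), a laminin chain, was lost without any 1 of the 4 libraries.

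Among regulators and proteases that act on desmosomes, 16 were tested, with 2 higher and 4 lower. Without SRC and ZEB2, 1 of 14 was higher and 3 were lower. ZEB2, a repressor that binds the E-box, had 1.47, 1.49, 0.513 and 0.666 FPKM (log2 fold change -1.30), and its adjusted p of 0.00067 (0.0530 with limma) belongs to a gene that entered the test through its control values. Its relative ZEB1 (6.03, 7.37, 5.78 and 6.28 FPKM) overlapped between groups, and SNAI2 (3.28, 3.57, 2.47 and 2.37 FPKM) did not pass (adjusted p = 0.0761). ADAM10 and ADAM9, membrane proteases that shed junction proteins, both fell by 0.67 on the log2 scale (adjusted p = 0.000971 and 0.00108). ATP2C1, the Golgi calcium pump mutated in Hailey-Hailey disease, fell by 0.43 (adjusted p = 0.00564, or 0.0702 with the GC correction). EGFR, a receptor kinase that phosphorylates desmosome proteins, had a log2 fold change of 0.38 (adjusted p = 0.0203) and passed in 18 of 32 settings, not with equal FPKM sums (0.125), limma (0.0880) or the GC correction (0.0549). The kinase gene SRC (log2 fold change 0.95, adjusted p = 0.0132) entered the test through its REEP6 values and did not pass with limma (0.103). GRHL1, a grainyhead-like activator, was below the filter, with 100, 133, 51 and 45 counts.

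**Figure D4:**
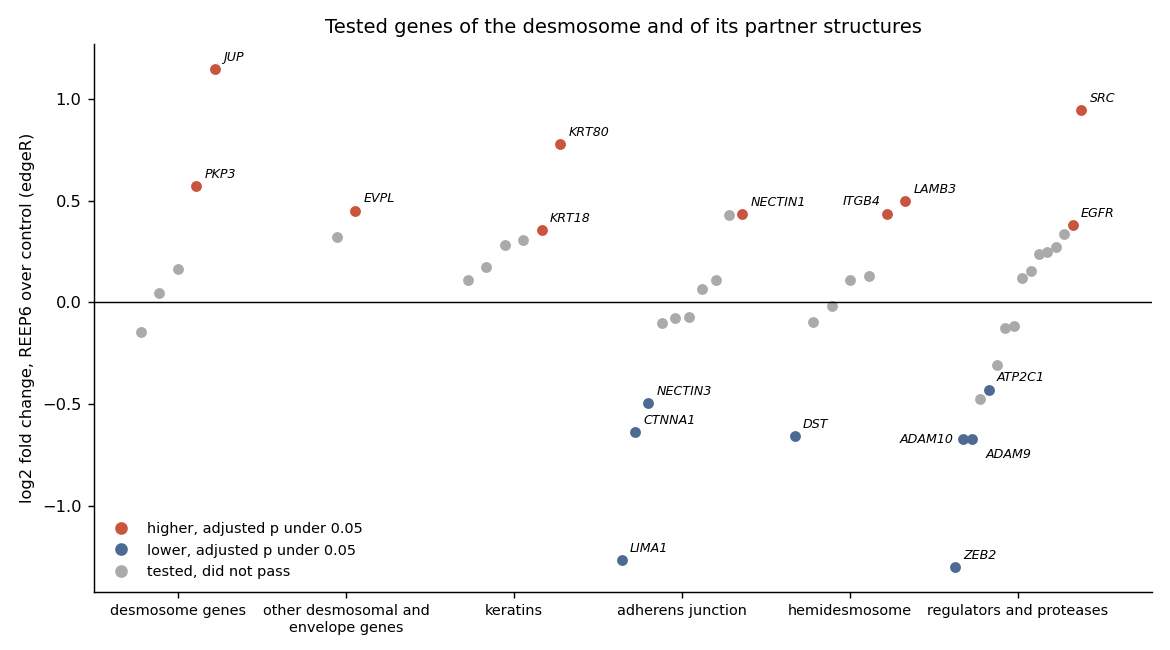
Log2 fold change of REEP6 over control from edgeR (y axis) for the 5 tested desmosome genes and the tested genes of 5 partner lists (x axis, sorted within each list). Red points passed as higher and blue points as lower. Desmosome, envelope and keratin genes hold no blue point, and the adherens junction list reaches -1.27 at LIMA1.

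Markers of other cell types were also compared, beside the 10.9% of all genes tested that passed as higher and the 14.2% as lower. Some of them differed between the groups, and their part in these results was not tested. The 1 squamous and the 1 leukocyte marker tested did not pass. The summed FPKM of 11 simple epithelial markers was 386, 404, 454 and 462, mostly KRT8 and KRT18. Of the 5 simple epithelial markers tested, 1 was higher and none lower, with a median log2 fold change of 0.36. That 1 was KRT18, which passed in 20 of 32 settings. The epithelial adhesion gene EPCAM had 31, 52, 61 and 79 counts and did not pass (edgeR adjusted p = 0.0550). KRT19 (0, 4, 1 and 0 counts) and CDH1 were near 0. The 10 mesenchymal markers summed to 293, 307, 353 and 354 FPKM. That sum was mostly VIM, with 204, 226, 289 and 294 FPKM, which rose (log2 fold change 0.46). Of the 7 mesenchymal markers tested, 1 was higher and 3 were lower, among them COL3A1 (-0.71), and the median log2 fold change was -0.47 (-0.38 without ZEB2). The 9 neuroendocrine markers summed to 446, 441, 274 and 243 FPKM, mostly SCG2, with 363, 371, 188 and 172 FPKM, which fell by 1.00. Of the 6 neuroendocrine markers tested, 1 was higher (ENO2, log2 fold change 0.57, past the threshold in 18 of 31 settings) and 1 was lower, with a median log2 fold change of 0.09, and CHGA (27.1, 22.8, 33.1 and 26.0 FPKM) overlapped. The 17 squamous markers summed to 6.75, 4.49, 10.9 and 6.89 FPKM, mostly from S100A2 (126, 90, 214 and 134 counts). Heart muscle, which also builds desmosomes, had sums of 0.292 to 0.694 FPKM over 8 markers. Leukocyte sums lay between 1.72 and 3.14 FPKM, mostly LYZ, and endothelial sums between 0.0995 and 0.548 FPKM. Mitochondrially encoded genes took 3.90%, 5.44%, 5.81% and 6.02% of the counts.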

How the data were processed

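RNA-seq of 2 control and 2 REEP6 libraries of SCC-15 was used, grouped by sample title. Per the file headers, the authors deposited a raw count and an FPKM value per gene and library. The deposited FPKM equalled the count divided by the library's total count and by 1 length per gene (relative tolerance 0.0001). Per the submitters' processing notes, HISAT2, HTSeq 0.13.5 and GRCh38 were used, in roles that the notes do not state. Which annotation and strand setting were chosen is not given in the sources used here. All 51103 identifiers matched GENCODE 29, which gave the coordinates (1-based) and, for each desmosome gene with a count, the same exonic length as the FPKM values imply. A desmosome gene that shares reads with a paralog cannot be separated from it, and reads without a gene are not used here.

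Genes with at least 1 FPKM in 2 or more libraries were scaled by TMM (factors 0.986 to 1.01) and tested with edgeR 4.0.16 (R 4.3.3), using its quasi-likelihood method with a trend, 1 term for group, 2 residual degrees of freedom, two-sided p-values and Benjamini-Hochberg adjustment over all genes tested, at 0.05. SE is the size of the log2 fold change over the square root of the F statistic. Desmosome genes below 1 FPKM were described from a fit without that filter, listed as an alternative. In that fit of all libraries the intervals of DSP, PKP2 and DSC2 had the width of a normal distribution. Their error was thus pooled over genes and gave no weight to each gene's own spread. The script was tested on simulated data. Libraries of a group differed by more than counting noise (chi-square per degree of freedom 9.58 and 5.68), and each was used as a replicate. A count of 0 was given a limit of 3 counts.

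The desmosome genes, the lists and the tests were chosen with earlier results of these data known. Named from each partner list were up to 4 called genes with the smallest p, and from each marker list up to 4 with the highest mean FPKM. SRC, EGFR, ENO2, PPL, PLEC, CTNNB1, ZEB1, SNAI2, GRHL1, CDH1, CDH2 and the keratins and markers at or near 0 fall outside that rule and were picked after their values were seen. Alternatives were median-of-ratios scaling, equal FPKM sums, DESeq2 1.42.0, limma 3.58.1 on log2(FPKM + 1) and log2(FPKM + 0.1), no filter, a minimum of 5 FPKM, the replicate number as a block, and leaving out each library. Chosen after seeing the data were edgeR's own filter, library totals, a correction for GC content (loess, span 0.3), and these combined with the filters.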

Additional observations from a re-analysis of the deposited data

How the results depend on the processing

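The number of desmosome genes called was 2 of the 5 tested at 1 FPKM, beside 25.1% of all genes tested. Without each library in turn the log2 fold changes of JUP (1.04 to 1.25) and PKP3 (0.49 to 0.68) kept their sign. Every desmosome call in every setting was higher with REEP6. More low genes entered the other fits. Without a filter 5 of 9 desmosome genes were called, beside 13.8% of all genes. The number was also 5 there with the GC correction (11.9% of all genes) and with the replicate number as a block. With edgeR's own filter 4 of 8 were called (21.8% of all genes), also with the GC correction (15.5%). DESeq2 gave 3 without a filter (8.35% of all genes) and 3 with edgeR's own (16.6%). Equal FPKM sums also gave 3 with each (10.5% and 23.7%). With a minimum of 5 FPKM 1 of 4 was called, beside 31.6% of all genes (JUP was not tested there). Leaving out each library leaves 1 library in a group. With edgeR's own filter the log2 fold change of DSP then ran from 1.47 to 2.68. The 0 came without either control, where edgeR called 0 of 29161 genes, although 4247 and 4146 genes and 5 and 4 desmosome genes had an unadjusted p under 0.05; the cause was not tested. JUP passed in 29 of 31 settings and PKP3 in 29 of 32, and the exceptions were fits without a filter that left out a library. DSP passed in 16 of 18, DSC2 in 7 of 18 and PKP2 in 5 of 18. The sign changed, with no call, for DSG2 with the GC correction (0.011, or 0.0319 with edgeR's own filter) and for PERP with equal FPKM sums (-0.0838 with each filter). For PERP the log2 fold change without 1 library ran from -0.0943 to 0.2231, with negative values without control replicate 1 (-0.0942 and -0.094 with the other filters) and without REEP6 replicate 2 (-0.0503 and -0.0514). The partner lists gave 16 calls, beside 25.1% of all genes tested. With limma they gave 10 at either pseudocount, beside 14.6% and 14% of all genes. Without a filter and without either control no partner gene passed, like every other gene, and the cause was not tested. Replicate numbers did not pair the libraries by any label, and with 2 numbers the correlation of deviations (0.271) cannot settle it. As a block they gave 3 desmosome calls (PKP4 added, adjusted p = 0.0337), or 6 with edgeR's own filter, and 25 partner calls (27 without a filter, 26 with edgeR's own), where 46.0% of all genes tested were called (20.2% without a filter, 39.4% with edgeR's own). Depth limits DSC3, DSG3 and DSP, with at most 65 counts in a library, and 2 libraries a group limit every interval.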
